A study of Mus musculus with 6 samples.

Results

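The genes described here are 49 members of TGF-beta and BMP superfamily signalling, matched by gene symbol among the 29752 genes listed for each library, and all 49 were found. They comprise 12 ligands, 12 receptors and co-receptors, 6 SMAD proteins that carry the signal, 9 inhibitors inside the cell or in its membrane, 6 extracellular antagonists and 4 ID genes that respond to the signal. RNA was sequenced from aortas of C57BL/6 mice at the age of 15 weeks, after 7 weeks on a normal diet that began at 8 weeks. One group was wild type (3 libraries) and the other carried the genotype written PALMD+/- in the labels, called heterozygote here (3 libraries). The labels leave unsaid what was altered in Palmd, how many animals went into a library or whether each library was a separate animal, so p-values measure the spread between these libraries.

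Ligands of this superfamily are secreted dimers that bring together type I and type II receptor kinases on the cell surface. The type I receptor then phosphorylates receptor-regulated SMAD proteins, which join Smad4 and enter the nucleus. In general, Smad2 and Smad3 carry TGF-beta and activin signals and Smad1, Smad5 and Smad9 carry BMP signals. The inhibitory SMADs Smad6 and Smad7 are themselves targets of the pathway and form a negative feedback. In the artery wall the pathway is known for its part in smooth muscle differentiation, matrix production, endothelial quiescence and calcification.

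The gene with the lowest p among the 49 was Smad6, and a short stretch of its promoter is shown because it holds the palindrome to which SMAD proteins are known to bind. The window searched for each gene runs from 250 bases before to 50 bases after a RefSeq transcription start (GRCm38.p6), and 35 of the 49 genes had at least 1 window, 45 windows in all. The other 14 genes, Smad7, Skil, Acvrl1 and Id1 among them, were not searched. The 3 letter strings below were searched on both strands: GTCTAGAC, the SMAD palindrome, and GGCGCC and GGAGCC, both GC-rich strings of the kind described in BMP-responsive promoters. GTCTAGAC was in 70 of 32851 windows (0.213%), and among the 45 windows in that of Smad6, where it begins 4 bases before the start and ends 4 bases after it. GGCGCC was in 11.9% of all windows and in 14 of the 45 (31.1%), among them those of Id2 and Id4. GGAGCC was in 30.8% of all windows and in 25 of the 45 (55.6%). Windows of 1 gene can overlap. The stretches are written 5′ to 3′ on the strand of the gene, with these strings in capitals. That of Smad6 covers chr9:64022056-64022179 (minus strand), that of Id2 chr12:25096306-25096335 (minus strand) and that of Id4 chr13:48260956-48260985 (plus strand). A match is a run of letters and not a measured binding site.
Smad6: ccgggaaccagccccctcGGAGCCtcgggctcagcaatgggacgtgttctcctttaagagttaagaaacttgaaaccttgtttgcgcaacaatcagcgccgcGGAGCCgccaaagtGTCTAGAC
Id2: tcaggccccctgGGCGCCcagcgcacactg
Id4: ctcgggttgcccGGCGCCccgccctcgcca

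Levels are in FPKM, that is reads per kilobase of gene, scaled to the reads of the library. A comparison of levels between different genes is only approximate. The reads behind the libraries numbered 17283951 to 18372131. Palmd itself was at 5.49, 7.88 and 10.1 FPKM in wild type 1 to 3 and at 5.31, 7.19 and 6.21 FPKM in heterozygote 1 to 3, so that the groups overlapped and its level does not check the labels (limma adjusted p = 0.915). Heterozygote 2 stood apart from the other libraries, with a mean correlation to them of 0.930 against 0.960 to 0.971 for the rest. In that library the summed level of 12 endothelial markers was 35.7% of the wild-type mean, that of 10 smooth muscle markers 55.2% and that of 8 cartilage markers 13.1%, while white adipocyte markers were at 186% and nerve and Schwann markers at 830%. Cytl1 alone made up 95.1% of the cartilage sum in wild type, and the other 7 cartilage markers summed to 48.8% in heterozygote 2. Without Pecam1, which made up 42.8% of the endothelial sum, that list was at 48.6% in heterozygote 2. Acta2 gave 7117 of the 8817 FPKM of the wild-type mean smooth muscle sum. Myh11 was at 612 FPKM in heterozygote 2 against 623.5 to 974.2 FPKM in wild type. The nerve and Schwann sum had a wild-type mean of only 16.7 FPKM, and Ngfr alone gave 69.1 of its 138.8 FPKM in heterozygote 2. In that library Kdr and Robo4 had their highest values, and Emcn and Cldn5 were within the wild-type range. In the other libraries the endothelial sum lay between 96.9% and 104% of the wild-type mean. The smooth muscle list, which defines the labelled tissue, was detected in full, with sums of 4864 to 10450 FPKM. Within it, Tagln was at only 2.125 to 4.294 FPKM and Acta2 at 3701 to 8367 FPKM, and the reason for the low Tagln values was not tested. In whole tissue, fewer cells of a type and less RNA per cell cannot be told apart.

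**Figure D1:**
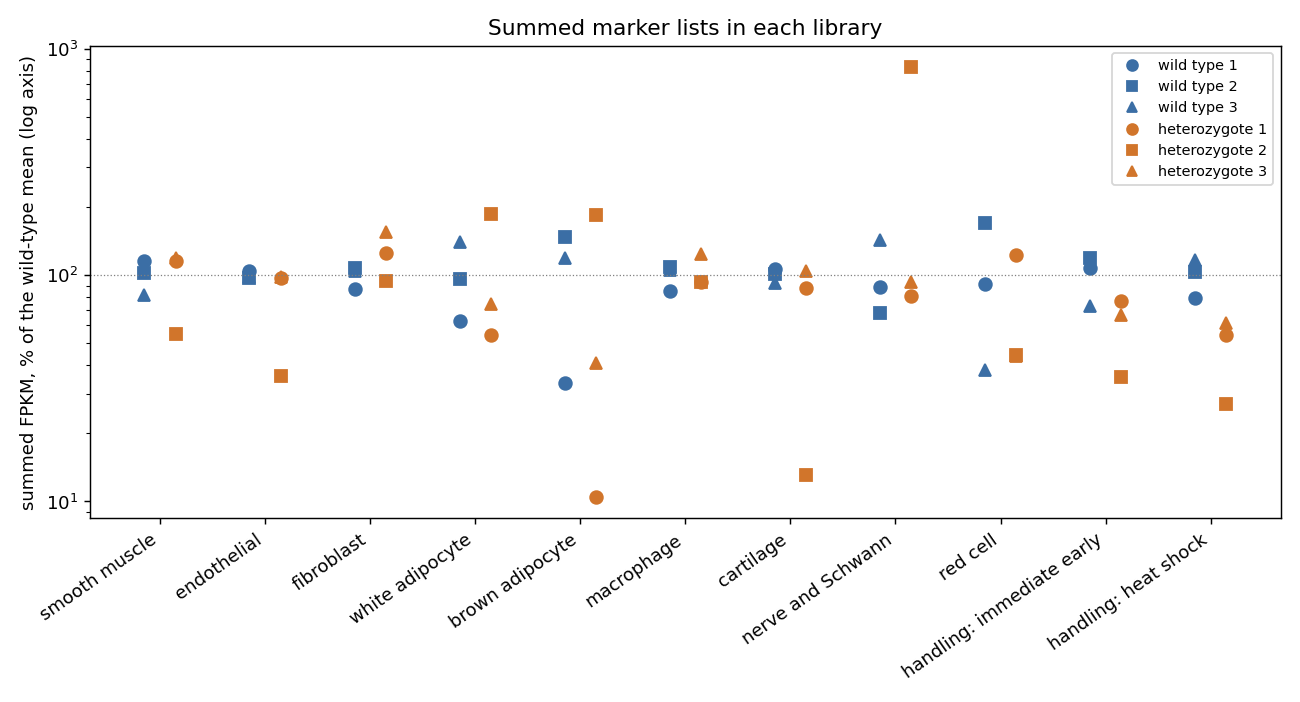
Summed FPKM of marker lists in each library as a percentage of the wild-type mean (log axis). Wild type is in blue, heterozygotes are in orange and the symbol gives the replicate number. The mesothelial, lymphocyte and striated and cardiac muscle lists are not drawn. Heterozygote 2 (orange squares) lies at 35.7% for endothelial, 13.1% for cartilage and 830% for nerve and Schwann markers, and all heterozygote libraries lie below all wild-type libraries for the heat shock list.

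Of the 49 genes, 45 reached the level needed for testing (at least 1 FPKM in at least 3 libraries). With limma on log2(FPKM + 1), 0 of the 45 had an adjusted p under 0.05, as was the case for all 12620 genes tested (0% called, with limma and with limma voom on reads recovered from the values), and the lowest adjusted p among the 45 was 0.459. An unadjusted p under 0.05 was reached by 820 genes with limma and 815 with limma voom. At that level with limma, 4 of the 45 were lower in heterozygotes and 0 higher, where 2.44% of all tested genes were lower and 4.06% higher. The 4 were Smad6, Skil, Smad7 and Id2, that is 3 of the 9 inhibitors and 1 of the 4 ID genes. All 3 heterozygote values lay below all 3 wild-type values for 6 of the 45 (13.3%, where 5.12% of all tested genes did), namely these 4 with Acvrl1 and Gdf15. For 0 of the 45 did all heterozygote values lie above (7.8% of all tested genes). With median-of-ratios scaling between libraries, 4 of the 45 were lower at an unadjusted p under 0.05 (3.4% of all tested genes), 7 were lower without overlap (7.55%) and 34 of the 45 were below 0 (54.1%). The exact permutation test cannot give a p below 0.1 with 3 libraries against 3, and it gave 0.1 for each of these 6 genes.

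**Figure D2:**
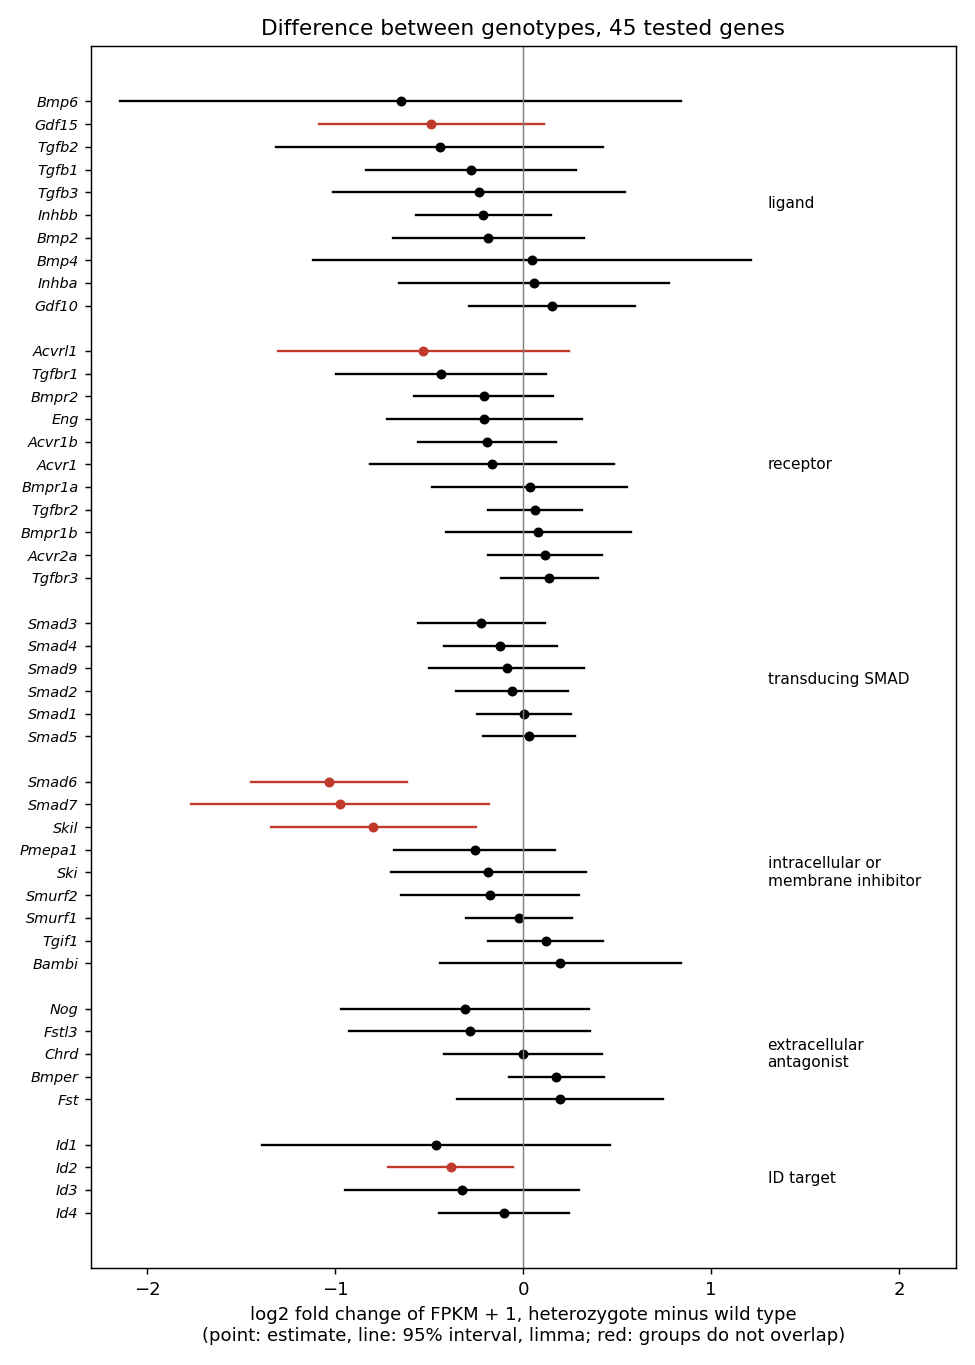
Log2 fold change of FPKM + 1 (heterozygote minus wild type) for the 45 tested genes, grouped by class, with the 95% interval from limma as a line and genes whose groups do not overlap in red. The intervals of Smad6, Smad7, Skil and Id2 lie below 0, and those of the other 41 genes cross it.

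The ligands were led by Gdf10, which encodes BMP3b, at 214, 216 and 206 FPKM in wild type 1 to 3 and at 269.6, 187.8 and 259.2 FPKM in heterozygote 1 to 3. The heterozygote libraries lay on both sides of the wild-type ones (limma: log2 fold change 0.15 with SE 0.18, adjusted p = 0.943). Without heterozygote 2 the remaining heterozygote libraries were both above wild type, at a log2 fold change of 0.32 and an adjusted p of 0.319. Bmp6, a BMP that endothelial cells of the liver are known to secrete, measured 109, 80.4 and 80.5 FPKM in the wild-type libraries against 103, 18.9 and 89.8 FPKM in the heterozygote libraries. Its low value was that of heterozygote 2 alone, and without that library its log2 fold change went from -0.65 (SE 0.62) to 0.11. An exon of Bmp6 overlaps Txndc5 on the opposite strand (38.8 to 72.7 FPKM), and the labels do not describe the library kit as keeping strand, so reads in the overlap cannot be assigned to one of them.

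Bmp4, a ligand made by mesenchymal cells of many organs, measured 61.9, 38.1 and 40.9 FPKM in the wild-type libraries against 70.4, 21.1 and 70.7 FPKM in the heterozygote libraries. Heterozygotes 1 and 3 were above all wild-type libraries and heterozygote 2 below all of them, so that the log2 fold change was 0.05 (SE 0.48) with all libraries and 0.61 (SE 0.21, limma adjusted p = 0.320) without heterozygote 2. Of the TGF-beta isoforms Tgfb3 was the most abundant, at 80.9, 59.2 and 50.8 FPKM in the wild-type libraries against 56.9, 33.8 and 76.8 FPKM in the heterozygote libraries. Tgfb1 had a mean of 14.3 FPKM over the 6 libraries and Tgfb2 one of 10.9 FPKM. The 3 isoforms summed to 91.6 ± 18.0 FPKM in wild type against 78.1 ± 28.0 FPKM in heterozygotes (SD, n = 3), with overlapping groups.

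Gdf15, a cytokine known as a marker of cell stress (chromosome 8, 70629393 to 70632456), measured 1.45, 1.41 and 1.29 FPKM in the wild-type libraries against 0.858, 0.156 and 1.27 FPKM in the heterozygote libraries. The groups did not overlap, but only just: both wild type 3 and heterozygote 3 had 43 reads, and heterozygote 2 had 5. The log2 fold change was -0.49 (SE 0.25, limma adjusted p = 0.810), and -0.21 without heterozygote 2. The activin subunits Inhba and Inhbb had means of 7.96 and 1.80 FPKM over the 6 libraries, and Bmp2 one of 3.23 FPKM, each with overlapping groups. Bmp5 and Bmp7 did not exceed 0.216 FPKM in any library, with 1 to 15 reads each, and were not tested. The median log2 fold change of the 10 tested ligands was -0.22, and 0.07 without heterozygote 2.

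**Figure D3:**
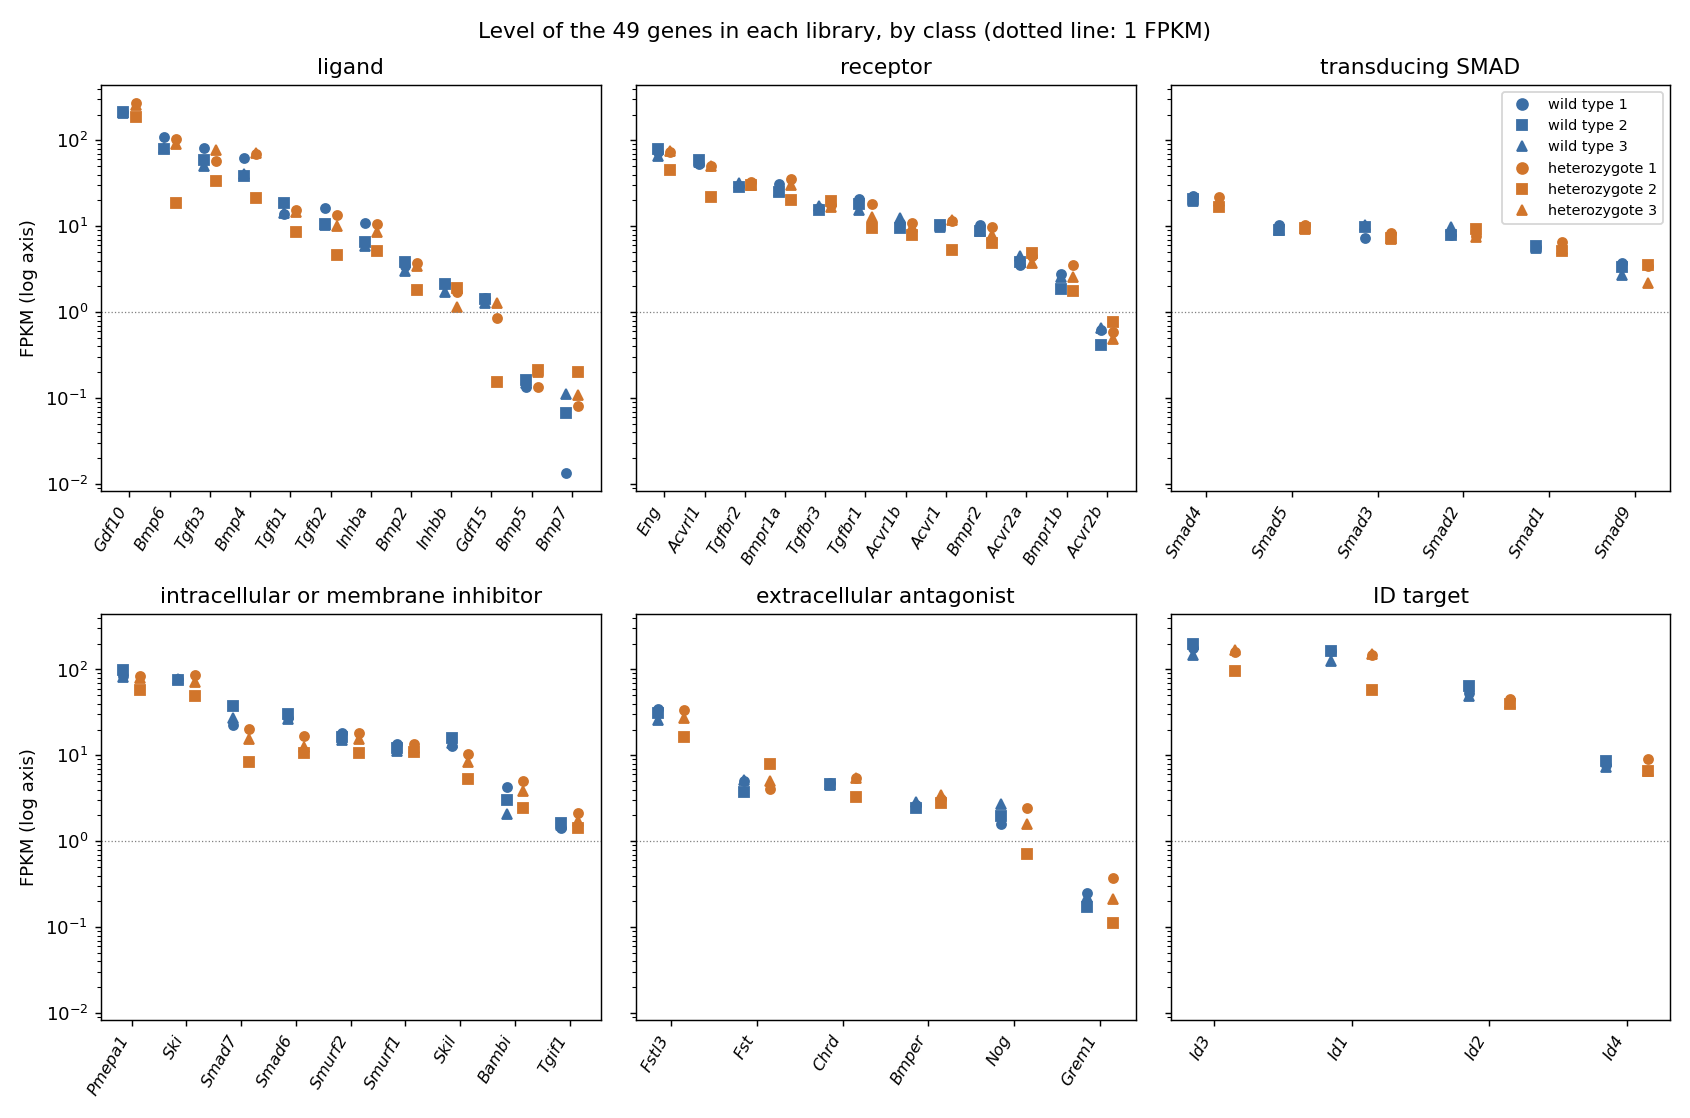
FPKM (log axis) of each of the 49 genes in each library, by class and ordered by mean level, with wild type in blue, heterozygotes in orange and the replicate number as the symbol. Heterozygote 2 (orange squares) is the lowest library for 32 of the 45 tested genes, Bmp6 among them at 18.9 FPKM.

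Among the receptors, 2 with known roles in endothelial cells had the highest mean levels. Eng, which encodes the co-receptor endoglin, measured 73.0, 79.4 and 66.1 FPKM in the wild-type libraries against 72.5, 45.4 and 74.8 FPKM in the heterozygote libraries. Acvrl1, a type I receptor of endothelial cells also called ALK1 (chromosome 15, 101128522 to 101145336), measured 53.1, 58.8 and 56.8 FPKM in the wild-type libraries against 50.6, 22.1 and 51.0 FPKM in the heterozygote libraries. For Eng heterozygotes 1 and 3 lay within the wild-type range and only heterozygote 2 below it. For Acvrl1 all heterozygote libraries were lower, 2 of them by a small margin (limma: log2 fold change -0.53 with SE 0.32, adjusted p = 0.856), and without heterozygote 2 the value was -0.14. The endothelial sum moved in the same way, with heterozygotes 1 and 3 at 96.9% and 97.8% of the wild-type mean and heterozygote 2 at 35.7%, and its part in these results was not tested. Acvrl1 also overlaps an exon of the antisense gene Gm16031, which was at 2.32 to 6.60 FPKM.

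The type II receptor Tgfbr2 (28.6 to 33.2 FPKM over the 6 libraries) and the co-receptor Tgfbr3 (15.4 to 19.9 FPKM) varied little between libraries, and Tgfbr3 was highest in heterozygote 2. Tgfbr1, the type I receptor for TGF-beta, measured 20.7, 18.1 and 15.5 FPKM in the wild-type libraries against 18.1, 9.44 and 12.8 FPKM in the heterozygote libraries, with heterozygotes 2 and 3 below and heterozygote 1 within the wild-type range (limma: log2 fold change -0.44 with SE 0.23, adjusted p = 0.824). The BMP receptors Bmpr1a, Acvr1 and Bmpr2 had means of 28.0, 9.87 and 8.73 FPKM over the 6 libraries. The activin receptors Acvr1b and Acvr2a had means of 10.3 and 4.17 FPKM and the BMP receptor Bmpr1b one of 2.51 FPKM. All of these had overlapping groups. The activin receptor Acvr2b was at or below 0.766 FPKM and was not tested. Acvr2a shares an exonic stretch with Orc4 on the opposite strand, which was at a like level (3.37 to 4.44 FPKM). The median over the 11 tested receptors was -0.17, and 0.04 without heterozygote 2.

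Transcripts of the SMAD proteins that carry the signal had overlapping groups, and single genes varied between libraries, Smad9 from 2.19 to 3.74 FPKM. Smad4, the partner common to both branches, measured 22.4, 21.01 and 19.7 FPKM in the wild-type libraries against 21.8, 16.8 and 19.5 FPKM in the heterozygote libraries. Smad5, the most abundant BMP-branch SMAD, measured 10.46, 9.07 and 9.04 FPKM in the wild-type libraries against 10.46, 9.52 and 9.22 FPKM in the heterozygote libraries. The BMP-branch genes Smad1, Smad5 and Smad9 summed to 18.5 ± 1.33 FPKM in wild type against 18.5 ± 1.78 FPKM in heterozygotes (SD, n = 3). The TGF-beta-branch genes Smad2 and Smad3 summed to 17.6 ± 2.35 and 15.7 ± 1.01 FPKM. None of the 6 had groups that did not overlap, and their log2 fold changes ran from -0.22 (Smad3) to 0.03 (Smad5). The 95% intervals of the 6 genes reached from -0.56, the lower bound of Smad3, to 0.32, the upper bound of Smad9. The sign of Smad5 turned with the median-of-ratios scaling and with single libraries left out.

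The inhibitors within the cell included the 3 lowest log2 fold changes of the 45 genes. Smad6, which blocks BMP receptors and Smad1 (ENSMUSG00000036867, GRCm38 chromosome 9, 63953076 to 64022059, minus strand), was at 27.0, 30.3 and 26.7 FPKM in wild type 1 to 3 and at 17.0, 10.7 and 12.4 FPKM in heterozygote 1 to 3. All heterozygote libraries were below all wild-type ones, and the gap between the groups was wider than the range within either. The heterozygote mean was 47.8% of the wild-type mean (limma: log2 fold change -1.03 with SE 0.17 and 95% interval -1.45 to -0.62, adjusted p = 0.459), and the values rest on 595 to 1783 reads per library. Without heterozygote 2 the log2 fold change was -0.90 (SE 0.15, limma adjusted p = 0.230), with the endothelial sum of the remaining libraries between 96.9% and 104% of the wild-type mean. Other sums were not level in heterozygotes 1 and 3. Fibroblast markers were at 126% and 155% of the wild-type mean, with wild type at 87.3% to 108%. The heat shock list was at 54.3% and 61.6%, with wild type at 79.7% to 117%. The part of these differences in the Smad6 values was not tested. Single endothelial markers were not all level. Of the 12, 3 (Nos3, Egfl7 and Esam) were lower in all heterozygote libraries, heterozygotes 1 and 3 included, beside 5.12% of all tested genes. Their part in the Smad6 values was not tested. Nos3 was at 40.8 and 39.2 FPKM in heterozygotes 1 and 3 and at 47.0 to 66.5 FPKM in wild type.

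Smad7, which blocks TGF-beta and BMP type I receptors (ENSMUSG00000025880, chromosome 18), measured 22.7, 37.4 and 27.2 FPKM in the wild-type libraries against 20.5, 8.46 and 15.6 FPKM in the heterozygote libraries. The groups did not overlap, but wild type 1 and heterozygote 1 were close. The means were 29.1 ± 7.49 and 14.9 ± 6.07 FPKM (limma: log2 fold change -0.97 with SE 0.33, adjusted p = 0.689), and without heterozygote 2 the log2 fold change was -0.64. Skil, the nuclear corepressor SnoN that restrains Smad2, Smad3 and Smad4 (ENSMUSG00000027660, chromosome 3, 31095058 to 31122577, plus strand), measured 12.9, 16.0 and 14.1 FPKM in the wild-type libraries against 10.51, 5.31 and 8.35 FPKM in the heterozygote libraries. All heterozygote libraries were below the wild-type ones (limma: log2 fold change -0.80 with SE 0.23, adjusted p = 0.616, and -0.56 without heterozygote 2).

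**Figure D4:**
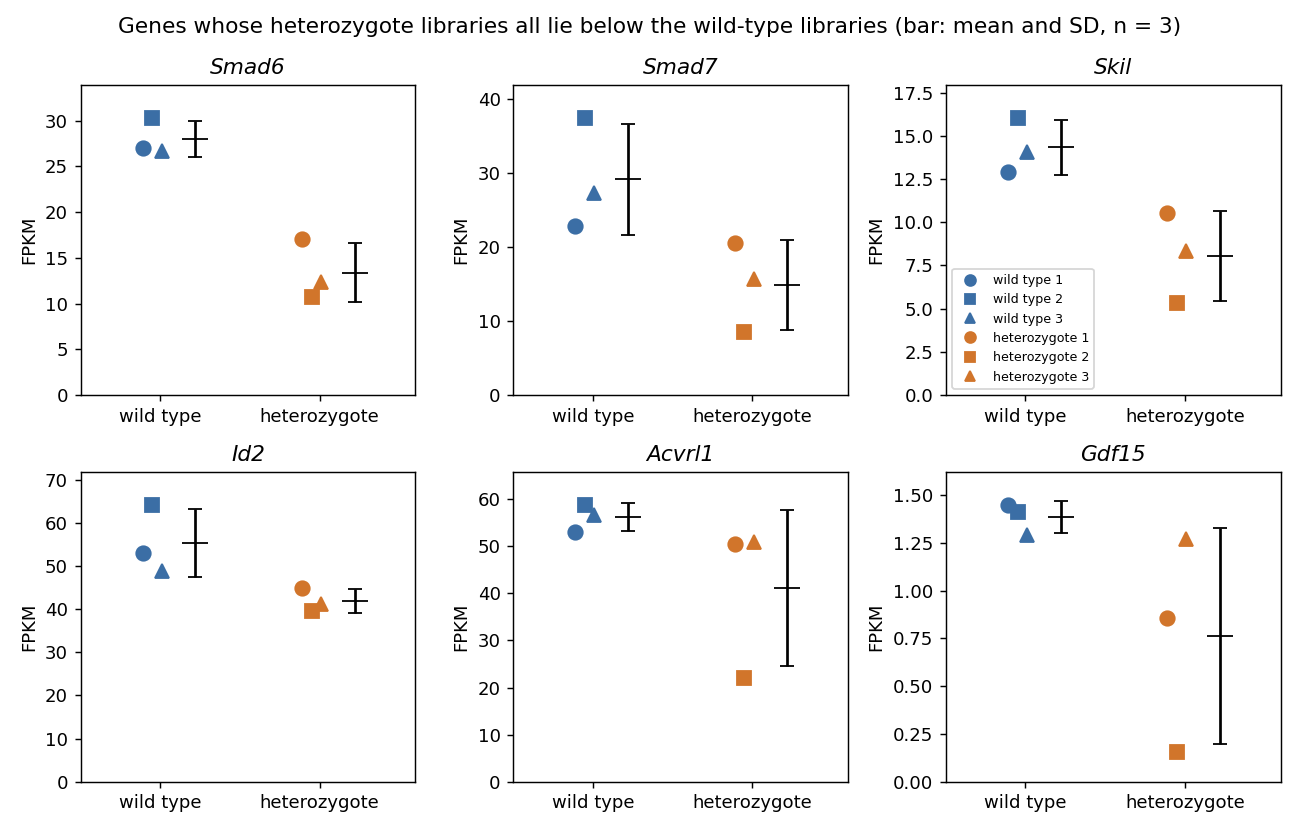
FPKM in each library of the 6 genes whose heterozygote values all lie below the wild-type values, with the mean and SD of 3 libraries as bars beside the points. Smad6 shows the widest gap (26.7 to 30.3 against 10.7 to 17.0 FPKM), while Gdf15 and Acvrl1 have heterozygote libraries just below wild type.

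The other inhibitors had overlapping groups. Pmepa1, a membrane protein that sequesters Smad2 and Smad3, measured 83.2, 97.5 and 80.7 FPKM in the wild-type libraries against 83.7, 57.9 and 78.5 FPKM in the heterozygote libraries. Ski, the relative of Skil, measured 77.1, 75.2 and 77.0 FPKM in the wild-type libraries against 87.0, 48.8 and 70.8 FPKM in the heterozygote libraries. For both, heterozygote 2 was lowest and heterozygote 1 was within the wild-type range or above it. The ubiquitin ligases Smurf1 and Smurf2, which mark SMADs and receptors for degradation, had means of 12.3 and 15.7 FPKM over the 6 libraries and log2 fold changes of -0.02 and -0.18. The pseudoreceptor Bambi and the corepressor Tgif1 had means of 3.43 and 1.65 FPKM. The median log2 fold change of the 9 inhibitors was -0.19, and 0.03 without heterozygote 2, where Smad6, Smad7 and Skil were still the 3 lowest of the 9.

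Extracellular antagonists were expressed at low levels apart from Fstl3, a binder of activins, at 34.2, 31.1 and 26.1 FPKM in the wild-type libraries against 33.9, 16.3 and 27.0 FPKM in the heterozygote libraries. Fst, its relative follistatin, measured 5.03, 3.76 and 5.23 FPKM in the wild-type libraries against 4.01, 7.87 and 5.03 FPKM in the heterozygote libraries, and was one of 3 tested genes with its highest value in heterozygote 2. The BMP binders Chrd, Bmper and Nog had means of 4.67, 2.88 and 1.84 FPKM over the 6 libraries, each with overlapping groups, and Grem1 was at or below 0.370 FPKM and was not tested. The median log2 fold change of the 5 tested antagonists was -0.0030, and 0.0002 without heterozygote 2.

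The ID genes encode helix-loop-helix proteins that lack a DNA-binding region and are induced by BMP signals. Id3 measured 177, 198 and 146 FPKM in the wild-type libraries against 161, 95.2 and 169 FPKM in the heterozygote libraries. Id1 measured 162, 165 and 124 FPKM in the wild-type libraries against 146, 57.7 and 149 FPKM in the heterozygote libraries. For both, heterozygotes 1 and 3 lay within the wild-type range and heterozygote 2 far below it. Id2 (ENSMUSG00000020644, chromosome 12, 25093799 to 25097140, minus strand) measured 53.1, 64.1 and 48.9 FPKM in the wild-type libraries against 44.9, 39.6 and 41.1 FPKM in the heterozygote libraries. Its groups did not overlap, and heterozygote 2 was close to the other heterozygote libraries (limma: log2 fold change -0.39 with SE 0.14, adjusted p = 0.724, and -0.35 without heterozygote 2). Id4 had a mean of 7.66 FPKM and a log2 fold change of -0.10. The median over the 4 genes was -0.36 and became -0.05 without heterozygote 2, while all 4 stayed below 0.

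Heterozygote 2 had the lowest value of the 6 libraries for 32 of the 45 tested genes (71.1%), against 34.3% of all tested genes. The median log2 fold change of the 45 genes was -0.19, with 31 of the 45 below 0, beside a median of 0.01 and 46.9% below 0 over all genes tested. Without heterozygote 2 the median was 0.0002, with 22 of 45 below 0, beside a median of 0.03 and 43.4% over all genes. In that comparison the remaining heterozygote libraries were below wild type for 7 of the 45 (12.4% of all tested genes) and above it for 6 (20.7% of all tested genes), and an unadjusted p under 0.05 was reached by 4 lower (6.06%) and 2 higher members (7.9%). The 7 were the 6 genes named above and Smad2, and the 6 were Bmp4, Gdf10, Acvr1, Tgif1, Chrd and Bmper. In no setting with 1 library left out did a member reach an adjusted p under 0.05, and the direction of 19 of the 45 turned in at least 1 of these settings. Of the other 26 genes, 19 were lower and 7 higher in heterozygotes in all 6 settings.

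**Figure D5:**
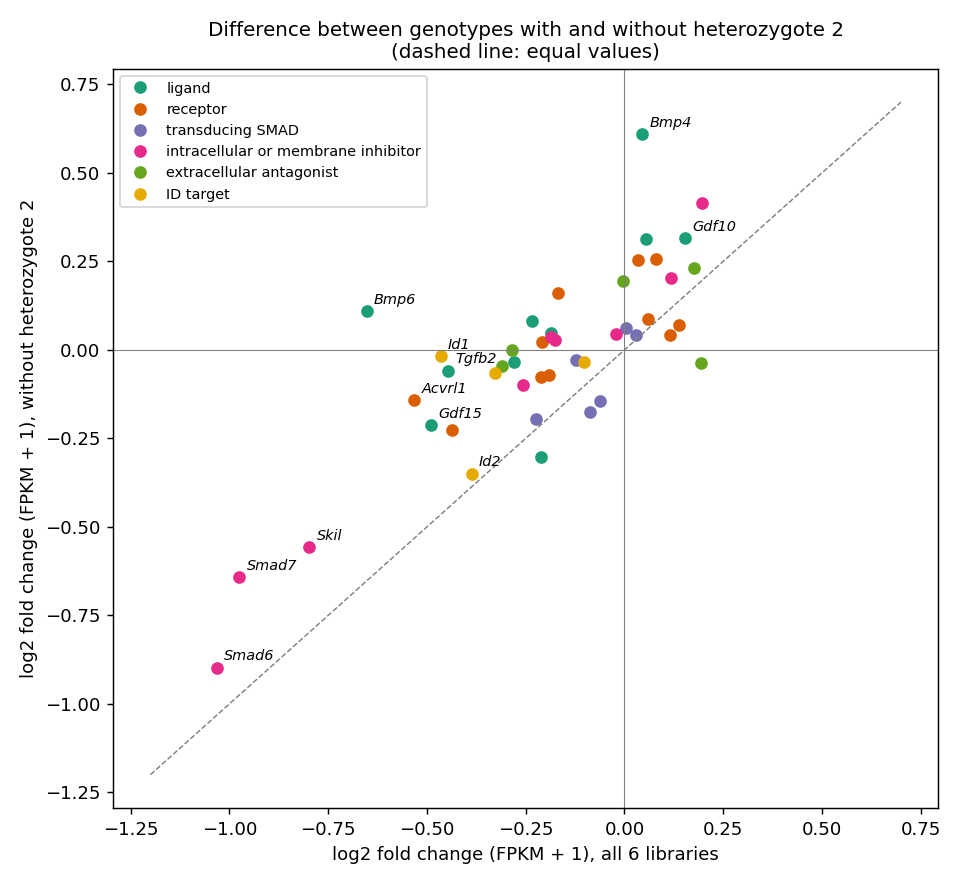
Log2 fold change (heterozygote minus wild type, FPKM + 1) of the 45 tested genes with all 6 libraries (horizontal axis) and without heterozygote 2 (vertical axis), coloured by class, with a dashed line where both are equal. Smad6 (-1.03 and -0.90), Smad7 and Skil remain lowest on both axes, while Bmp6 moves from -0.65 to 0.11 and Id1 from -0.47 to -0.02.

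The levels of Smad6, Smad7 and Skil were also set against endothelial markers of the same library, a step chosen after the data were seen. Relative to the sum of the 12 markers, Smad6 was at 2.82% to 3.38% in wild type, at 1.92% and 1.38% in heterozygotes 1 and 3 and at 3.28% in heterozygote 2, so that the groups overlapped. Smad7 and Skil overlapped as well on this scale. Pecam1 gave the largest part of that sum in wild type and was at 72.0 FPKM in heterozygote 2 against 372 to 424 FPKM in wild type, while Cdh5 was at 52.6 FPKM against 75.7 to 80.9 FPKM. Relative to Cdh5 alone, Smad6 was at 33.0% or more in wild type and at 15.6% to 22.2% in heterozygotes, with no overlap. Relative to Pecam1, Tek, Vwf or Nos3 the groups overlapped, and heterozygote 2 had the highest ratio of the 6 libraries. It was 14.9% of Pecam1 there against 6.36% to 8.13% in wild type, and 91.3% of Nos3 against 42.8% to 57.5%. Relative to Kdr the groups overlapped as well, with heterozygote 1 at 496% and wild type at 493% to 571%. There heterozygote 2 had the lowest ratio, 73.8%. Over the 12 markers taken singly, all heterozygote ratios of Smad6 lay below all wild-type ratios for 7, and those of Smad7, Skil and Gdf15 for 5 each. They did so for 2 of the 12 markers for Acvrl1 and for 0 of the 12 for Id2. The genes divided here were those whose heterozygote values already lay below wild type. Some markers without overlap for Smad6, Cldn5 and Robo4 among them, had log2 fold changes above 0 (0.36 and 0.07). A share over all tested genes was not computed for these ratios, so the counts are only a description.

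Transcripts known to respond quickly to stimulation or tissue handling were lower in heterozygotes for the heat shock list, and overlapped for the immediate early list. The summed level of 8 heat shock genes was 1250 to 1838 FPKM in wild type against 421.5 to 966 FPKM in heterozygotes, with no overlap, and 6 of the 8 were lower in all heterozygote libraries (5.12% of all tested genes). The sum of 10 immediate early genes was 537 to 869 FPKM in wild type against 259.6 to 562 FPKM in heterozygotes, with overlapping sums and 4 of the 10 genes lower in all heterozygote libraries, beside the same 5.12%. Smad6, Smad7, Skil and Id2 were lower in the same libraries as the heat shock sum, and the part of handling in their values was not tested.

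Of 94 other genes of the pathway in a list kept beside the members, 90 were found (2 by an older symbol) and 67 were tested. Over all genes 0 of the 67 had an adjusted p under 0.05, and all heterozygote values lay above wild type for 9 and below for 9 (13.4% each way, beside 7.8% and 5.12% of all tested genes). The lowest p belonged to Mtmr4, a phosphatase reported to dampen signalling from endosomes, at 11.5, 12.2 and 12.8 FPKM in the wild-type libraries against 7.18, 7.54 and 7.56 FPKM in the heterozygote libraries (limma: log2 fold change -0.64 with SE 0.09, adjusted p = 0.322). Here heterozygote 2 did not stand apart. Ltbp2, a latent TGF-beta binding protein by sequence, stood at -0.51 on the log2 scale (SE 0.11), and Fbn1, a microfibril protein that anchors latent complexes, at 0.69 (SE 0.14). Inha, which encodes the inhibin alpha chain, measured 4.45, 4.32 and 4.14 FPKM in the wild-type libraries against 6.65, 6.90 and 6.01 FPKM in the heterozygote libraries (limma: log2 fold change 0.50 with SE 0.09, adjusted p = 0.531).

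Textbook target genes of both branches were listed as well. Of 14 TGF-beta targets, 3 were higher and 3 lower in all heterozygote libraries, beside 7.8% and 5.12% of all tested genes. With median-of-ratios scaling 2 were higher and 3 lower, beside 6.21% and 7.55% of all tested genes. The higher ones were the fibrillar collagens Col1a1 (log2 fold change 0.89, SE 0.26), Col3a1 (0.89, SE 0.24) and Col1a2 (0.59, SE 0.23). For Col1a2 the gap was narrow, with wild type 2 at 360.5 FPKM and heterozygote 2 at 367.5 FPKM. The lower ones were the transcription factors Junb (log2 fold change -1.25, SE 0.29) and Klf10 (-0.71, SE 0.26) and the cell cycle inhibitor Cdkn1a (-1.22, SE 0.30). Klf10 was at 22.35 FPKM in wild type 1 and at 22.32 FPKM in heterozygote 1, so that its groups nearly met, and Junb is also among the 10 immediate early genes. The summed fibroblast markers, Col1a1 among them, were at 126%, 94.8% and 155% of the wild-type mean in heterozygote 1 to 3. Without Col1a1, the 1 marker of the 10 that was higher in all heterozygote libraries, the sum was at 107%, 78.0% and 129%, and its part in the collagen values was not tested. Of 4 tested BMP targets all 4 had log2 fold changes below 0 (46.9% of all tested genes). Without heterozygote 2, 3 were below 0 and 1 above (43.4% of all tested genes were below 0), and 0 had an unadjusted limma p under 0.05. All heterozygote values lay below wild type for 1 of the 4 with all libraries (5.12% of all tested genes). Without heterozygote 2 they did so for 2 of the 4 (12.4%). Atoh8, an ALK1-responsive factor of endothelial cells, measured 22.1, 39.7 and 29.5 FPKM in the wild-type libraries against 21.98, 15.1 and 18.8 FPKM in the heterozygote libraries, where wild type 1 and heterozygote 1 were nearly equal. None of these genes passed the threshold.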

How the data were processed

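The authors deposited 1 file per library with FPKM-type values (whether FPKM or RPKM is not stated), and GRCm38, TopHat2, HISAT2 2.1.0 and Bowtie2 2.2.3 are listed, without roles, in the submitters' processing notes. The counting tool is not given in the sources used here. From the values and GENCODE M21 exon lengths, whole reads (within 0.01) came out for 94.5% to 94.8% of genes with few reads, which gave the depths, and 1 read on a 2 kb gene is worth 0.0272 to 0.0289 FPKM. Groups and replicate numbers come from the titles, and the file headers number the heterozygotes differently. Limma 3.58.1 (R 4.3.3) with a mean-variance trend was fitted to log2(FPKM + 1) of 12620 genes (1 FPKM or more in 3 or more libraries), without covariate, and p-values were adjusted by Benjamini-Hochberg over all of them (threshold 0.05). A fold change on this scale understates that of low genes. The members and lists were chosen with earlier results of these data known. Every member is accounted for, and values per library are given for members with an unadjusted p under 0.05 or groups that do not overlap and for the 2 of each class with the highest mean. Up to 4 other pathway genes per direction, by smallest p, and the 5 genes most like Smad6 are named. Tgfb3, Bmp4, Tgfbr1, Klf10, Col1a2 and Atoh8 were added after their values were seen. Alternatives were another pseudocount (0.1), no filter, median-of-ratios scaling, each library left out, a replicate block, and limma voom on the recovered reads. Promoters are from RefSeq.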

Additional observations from a re-analysis of the deposited data

How the results depend on the processing

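With 1 library left out, 0 to 1 genes passed the threshold over all genes (Gm17720, Trbd1, Zbtb16 and Nr1d1 in 1 setting each) and 0 members did. Under the other alternatives 0 genes passed, and 820 genes had an unadjusted p under 0.05 with limma and 815 with limma voom. With 1 library left out, 2 (without wild type 2) to 6 (without heterozygote 1) members were lower at an unadjusted limma p under 0.05. From 0 to 2 (without heterozygote 2) were higher at that level. Groups did not overlap for 6 to 15 lower members (15 without heterozygote 1) and for 0 to 6 higher ones (6 without heterozygote 2). Without heterozygote 2, 12.4% of all tested genes were lower and 20.7% higher without overlap, against 5.12% and 7.8% with all libraries. For the other left-out libraries no share over all genes is given, so these counts are not a result about the members. The median log2 fold change of the ID genes ran from -0.459 to -0.0498. Relative to the summed endothelial markers, a step chosen after the data were seen, 1 member was lower and 6 were higher without overlap. That sum was at 35.7% of the wild-type mean in heterozygote 2, so the division raises the values of all genes in that library. A share over all tested genes was not computed on this scale, so these counts are not a result about the members. Libraries that share a number did not pair (correlations of their deviations 0.508, -0.088 and -0.342), and with the replicate block 2 members, Smad6 and Skil, had an unadjusted p under 0.05 and 0 genes passed. With median-of-ratios scaling Smad5 turned to -0.0036, and the share of higher genes among those whose groups do not overlap went from 60.4% to 45.1%. The fold changes of 19 members turned sign with 1 library left out. Among them the ranges were -1.08 to 0.11 (Bmp6), -0.33 to 0.021 (Eng), -0.019 to 0.092 (Smad5), -0.37 to 0.038 (Ski), -0.51 to 0.0002 (Fstl3), -0.036 to 0.38 (Fst), -0.24 to 0.61 (Bmp4), -0.50 to 0.08 (Tgfb3) and -0.34 to 0.16 (Acvr1), and the other 10 were Bmp2, Inhba, Bmpr1a, Bmpr1b, Smad1, Smad2, Smad9, Smurf1, Smurf2 and Chrd. Gdf15 was at -1.09 with a pseudocount of 0.1 and at -1.25 with limma voom. The cause of these shifts was not tested. The number of libraries limits all of these values, and Bmp5, Bmp7 and Gdf15 rest on few reads.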

Other observations

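The genes whose levels ran most like those of Smad6 over the 6 libraries, by the Pearson correlation of log2(FPKM + 1) among 12620 genes, were Stim1 (0.996), Fkbp5 (0.991), Osgin1 (0.991), Dab2ip (0.990) and Zbtb46 (0.982). The 6 points share the split by genotype and the makeup of each library, and the correlations are a description of 6 points. Fkbp5, a cochaperone of the glucocorticoid receptor, measured 15.9, 18.8 and 16.9 FPKM in the wild-type libraries against 12.1, 8.27 and 10.2 FPKM in the heterozygote libraries (limma: log2 fold change -0.72 with SE 0.15, adjusted p = 0.549). Stim1, the calcium sensor of the endoplasmic reticulum, followed the order of Smad6 within a narrow range of 11.7 to 12.98 FPKM. Of the other members, Skil (0.956), Smad7 (0.918) and Id2 (0.911) had the highest correlations with Smad6, at ranks 36, 113 and 137 among all genes tested.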
